A study of Mus musculus with 6 samples.

Results

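Oxidative phosphorylation is carried out in the inner mitochondrial membrane. Complexes I and II pass electrons from NADH and succinate to coenzyme Q, complex III passes them on to cytochrome c, and complex IV hands them to oxygen. Complexes I, III and IV pump protons as they do so, and the ATP synthase, complex V, uses the return of the protons to make ATP. A few subunits are encoded in mitochondrial DNA, while most subunits and all assembly factors are encoded in the nucleus. Some subunits of complex IV have isoforms that are used mainly in heart, skeletal muscle, brown fat, lung or testis.

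The nuclear-encoded genes of this system were taken from the mRNA table by gene symbol, as those beginning with Ndufa, Ndufb, Ndufc, Ndufs, Ndufv, Cox4 to Cox8, Uqcr or Atp5 together with Sdha, Sdhb, Sdhc and Sdhd. This gave 94 gene identifiers under 93 symbols, out of 21954 genes in the table. By complex there were 36 subunits and 8 assembly factors of complex I, 4 genes of complex II, 8 of complex III, 20 of complex IV and 18 of complex V. Ndufa4 and its paralogue Ndufa4l2 were placed with complex IV, to which Ndufa4 is now assigned. Of the 94, 91 averaged at least 0.5 FPKM over the libraries and were tested. The testis isoforms Cox8c and Cox7b2 and a second identifier of Atp5o, ENSMUSG00000116933, were listed at 0 in every library.

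The series compared thymuses of C57BL wild-type mice aged 5 weeks, collected 24 h after the irradiated animals had received 6 Gy of X-rays. There were 3 irradiated libraries and 3 libraries of unexposed controls, all of polyadenylated RNA. The labels count 3 mice in each group without naming the animal behind each library, so that the p-values describe the spread between libraries. Abundance was given as FPKM, the fragments of a gene per kilobase of transcript and per 1000 x 1000 fragments, with 1 fragment in a transcript of 1 kb worth an estimated 0.039 to 0.0408 FPKM in irradiated and 0.043 to 0.0455 FPKM in control libraries.

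Rag1, which cuts the receptor genes of developing T cells, stood at 0.511 to 2.32 FPKM in irradiated libraries and at 511 to 592 FPKM in controls, where it and Cd8a, at 234 to 268 FPKM, fitted the labelled tissue. Of 15 markers of double-positive thymocytes, the most numerous cells of the thymus, 14 fell, and their summed level was 253 to 351 FPKM in irradiated and 3413 to 3880 FPKM in control libraries. All 12 markers of dividing cells fell, and all 8 of macrophages and all 7 of fibroblasts rose. In these bulk samples fewer cells of a type and less RNA per cell cannot be told apart, and the part of this shift in any value below was not tested.

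The promoters of 5 called members are shown as examples, and the binding of any factor to them was not tested. They run from 250 bases before to 50 bases after the start, on the gene's own strand, and come from RefSeq (GRCm38.p6), whose table matched 76 of the 93 symbols. Capitals mark an exact match, on either strand, to GCGCATGCG, a site of NRF1, or to AAGATGGCG, a site of YY1. Ndufa8, Ndufa11 and Atp5g2 carry the first, Ndufs4 the second, and Atp5md none of those searched. The regions are chr2:36049289-36049588 for Ndufa8 (minus strand), chr17:56717512-56717811 for Ndufa11 (plus), chr15:102670998-102671297 for Atp5g2 (minus), chr13:114388045-114388344 for Ndufs4 (minus) and chr19:47090598-47090897 for Atp5md (minus).
Ndufa8: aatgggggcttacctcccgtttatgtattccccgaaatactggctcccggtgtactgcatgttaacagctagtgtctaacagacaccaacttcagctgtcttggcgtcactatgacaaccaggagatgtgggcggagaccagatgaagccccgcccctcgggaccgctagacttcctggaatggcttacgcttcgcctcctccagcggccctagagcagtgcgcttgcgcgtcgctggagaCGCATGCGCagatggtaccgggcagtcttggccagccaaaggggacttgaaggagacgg
Ndufa11: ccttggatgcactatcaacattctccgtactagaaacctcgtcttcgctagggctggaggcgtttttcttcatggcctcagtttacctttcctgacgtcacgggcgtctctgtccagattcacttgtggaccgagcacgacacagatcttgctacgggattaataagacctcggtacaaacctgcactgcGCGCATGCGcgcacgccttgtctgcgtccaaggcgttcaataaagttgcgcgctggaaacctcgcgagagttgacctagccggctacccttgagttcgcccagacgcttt
Atp5g2: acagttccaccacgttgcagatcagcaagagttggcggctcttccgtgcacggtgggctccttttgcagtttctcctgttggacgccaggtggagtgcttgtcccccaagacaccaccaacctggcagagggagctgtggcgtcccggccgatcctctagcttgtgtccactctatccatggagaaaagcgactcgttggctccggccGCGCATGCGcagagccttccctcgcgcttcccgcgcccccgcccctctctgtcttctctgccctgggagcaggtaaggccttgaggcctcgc
Ndufs4: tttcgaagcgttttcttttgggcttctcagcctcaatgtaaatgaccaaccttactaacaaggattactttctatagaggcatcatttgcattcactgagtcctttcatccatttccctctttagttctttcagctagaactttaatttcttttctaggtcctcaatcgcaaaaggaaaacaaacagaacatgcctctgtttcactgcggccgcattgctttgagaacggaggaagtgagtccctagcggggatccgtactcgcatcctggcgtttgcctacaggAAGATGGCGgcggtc
Atp5md: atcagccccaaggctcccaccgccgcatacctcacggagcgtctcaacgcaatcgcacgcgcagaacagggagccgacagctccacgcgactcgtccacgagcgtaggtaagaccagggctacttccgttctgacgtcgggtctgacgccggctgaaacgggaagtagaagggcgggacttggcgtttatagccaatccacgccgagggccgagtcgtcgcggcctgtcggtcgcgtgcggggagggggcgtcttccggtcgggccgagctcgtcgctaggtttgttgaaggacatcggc
The NRF1 letters were present in 10 of 76 member promoters, or 13.2%, against 3.84% of the promoters of all tested genes and 1.95% of all promoters. Those of YY1 were in 8, or 10.5%, against 3.26% of tested genes and 1.64% of all. The ETS site CCGGAAGT, read by GABP, was in 5, or 6.58%, against 8.43% of tested genes and 4.31% of all. No letters of one motif are contained in another. Of the 10 members with the NRF1 letters 3 were called higher, 0 lower and 7 neither, and the promoters shown are those of the 3. Of the 8 with the YY1 letters, 0 were higher, 1, Ndufs4, was lower and 7 were neither. Among all genes tested 42.4% were higher and 20.9% lower. The part of these factors in the calls was not tested.

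Irradiated thymus had more mRNA of some respiratory chain genes and less of others. Among the 91 tested members 20 rose and 8 fell at an adjusted p under 0.05 (limma, Benjamini-Hochberg over all genes). That is 22% and 8.79%, beside 42.4% higher and 20.9% lower among all 14001 genes tested. The median log2 fold change was 0.43 over the members and 0.40 over all genes. The irradiated and control libraries did not overlap in 34 of the 91, while this held for 70.8% of all genes tested. The members' shares of higher calls, of lower calls and of genes without overlap were each below those of all genes. Where a count of 0 is given below for members, assembly genes or the citric acid cycle, it was also 0 at an unadjusted p under 0.05 and in the authors' deposited table, unless another count stands beside it.

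The split of the calls depended on scaling and on single libraries. Quantile normalization gave 14 higher and 14 lower, and median-ratio scaling gave 6 higher and 21 lower, with the median of all genes at -0.07 and 0.02. Relative to that median the members stood at 0.31 and 0.02, against 0.03 as deposited. Without irradiated replicate 1 there were 53 higher and 8 lower, and without irradiated replicate 2 there were 13 higher and 12 lower. Without irradiated replicate 3 the counts were 12 and 7. Leaving out control replicate 1, 2 or 3 left 9, 10 or 7 higher and 6, 5 or 8 lower. Of the 20 higher calls, Atp5g1, Ndufa11 and Ndufa4l2 were kept in all 6 fits without 1 library and under all 3 scalings. Of the 8 lower calls, Atp5f1, Atp5md, Atp5mpl, Cox7b and Ndufs4 were. All these fits used the same deposited FPKM. The authors' deposited table called each of these genes except Atp5g1, which it placed at 0.25 (adjusted p = 0.684).

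The members did not move evenly between the irradiated thymuses. Relative to the control mean, their median log2 level was -0.19, 0.85 and 0.52 in irradiated replicates 1, 2 and 3, while that of all tested genes was 0.26, 0.45 and 0.45. In 71 of the 91 members (78%) replicate 2 was the highest and replicate 1 the lowest of the irradiated libraries, an order seen in 22.3% of all tested genes. Irradiated replicate 1 lay below all controls in 51 of the 91 members and in 4739 of all 14001 tested genes. Replicate 2 lay above all controls in 72 of the members and in 8019 of all tested genes. The median ratio of replicate 2 to replicate 1 was 1.99 over the members and 1.05 over all genes. Over the irradiated libraries the median coefficient of variation was 40.4% for the genes that rose, 36.1% for those not called and 9.32% for the 8 that fell, beside 22.7% for all tested genes. A small spread also makes a call easier to reach.

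**Figure D1:**
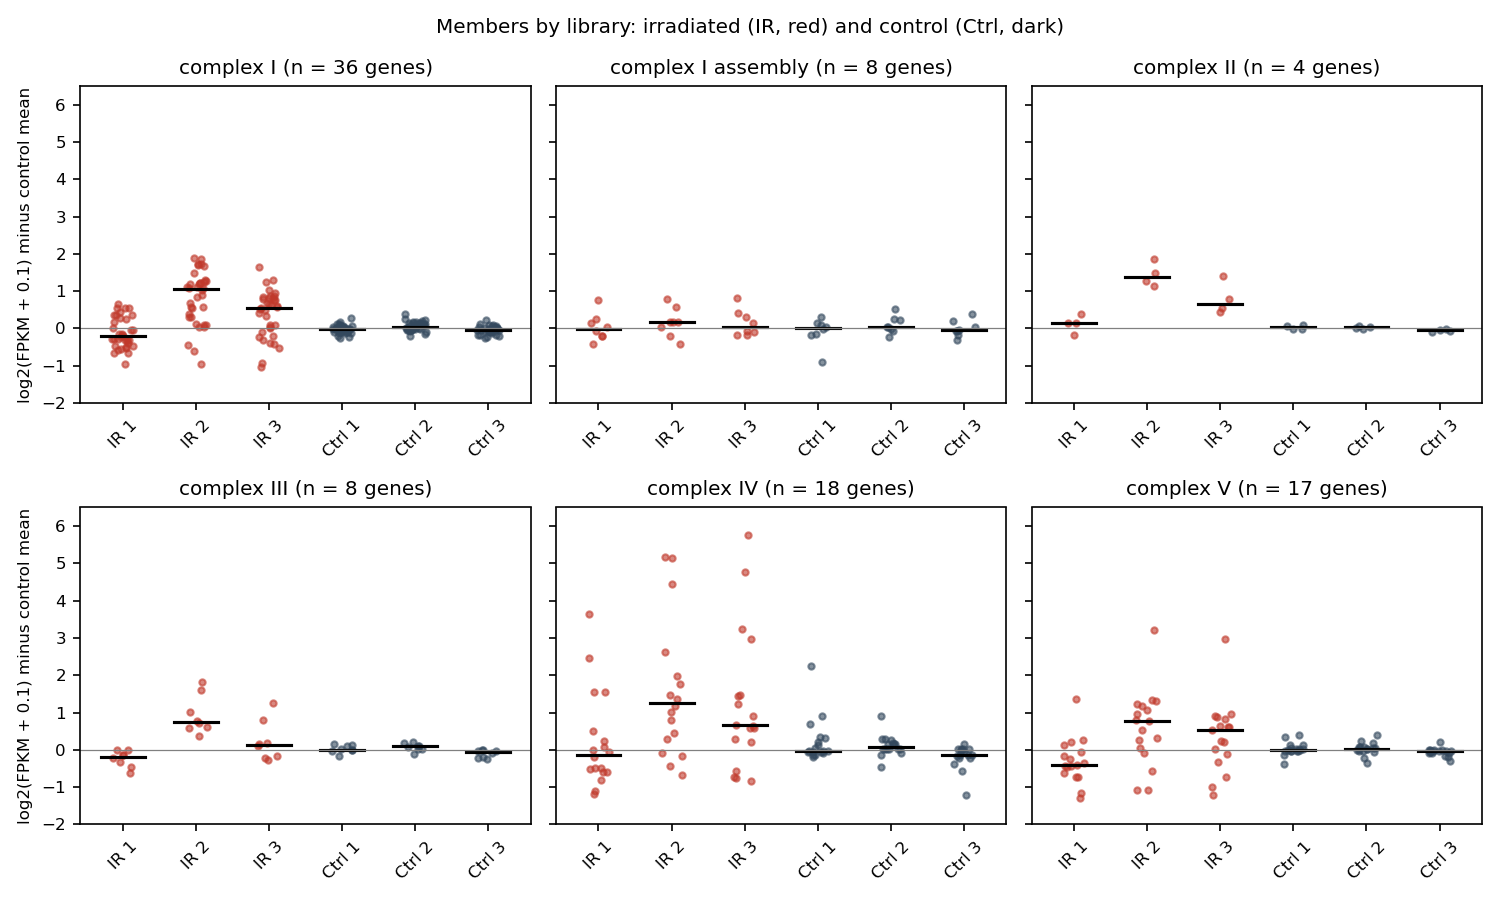
Log2(FPKM + 0.1) minus the control mean (y axis) of each tested gene in each library (x axis), by complex; points are genes, bars are medians, red marks irradiated (IR) and dark control (Ctrl) libraries. The medians of complex I stand at -0.21, 1.05 and 0.56 in irradiated replicates 1, 2 and 3, and the assembly factors of complex I stay at -0.02, 0.17 and 0.03.

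The irradiated libraries also differed in transcripts of other tissues, with muscle and fat markers in the same order. The summed FPKM of 7 heart muscle markers was 4.27, 745 and 77.4 in irradiated replicates 1, 2 and 3, against 1.45, 1.84 and 3.36 in control replicates 1, 2 and 3. For 14 skeletal muscle markers it was 11.7, 242 and 62 in irradiated libraries, against 8.59 to 10.6 in controls. For 6 brown fat markers it was 12, 289 and 75.8, against 16.6, 3.52 and 1.2 in controls, and for 7 fat markers 181, 2544 and 1138, against 39.3 to 66.5. All of these were highest in irradiated replicate 2, and in replicate 1 the muscle sums were just above and the brown fat sum among those of the controls. Of the heart list 3 of 7 were called higher, of the skeletal muscle list 8 of 14, of the brown fat list 3 of 6 and of the fat list 6 of 7. The share called higher among all genes tested was 42.4%. Several of these markers, such as Myh6 at a control mean of 0.0415 FPKM, reached the level needed for testing only through the irradiated libraries. Myh6, the myosin of the atrium and the adult mouse heart, was at 0, 165 and 13.2 FPKM in irradiated replicates 1, 2 and 3 and at 0, 0.026 and 0.0986 FPKM in controls. Markers of airway epithelium summed to 45.8, 3090 and 44.9 FPKM in irradiated libraries and to 3.34 to 4.11 FPKM in controls. Of these, Sftpb was at 0, 0.365 and 0 FPKM in irradiated libraries and at 0 in all controls, too low to be tested. The part of these tissues in the levels of the members was not tested.

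Summed over its genes, complex I stood at 944, 1865 and 1322 FPKM in irradiated replicates 1, 2 and 3, against 979.7, 1063 and 969.9 FPKM in controls. Complex II stood at 165, 416 and 255 FPKM, against 162, 165 and 156 FPKM in controls. Complex V stood at 1066, 2149 and 1666 FPKM, against 1447, 1499 and 1375 FPKM. Complex III stood at 350.1, 767 and 471 FPKM, against 419.8, 459.9 and 395 FPKM. Complex IV stood at 777, 1873 and 1256 FPKM, against 1001, 1064 and 909 FPKM. For complexes I, III, IV and V the irradiated libraries thus lay on both sides of the controls. The ratio of the means, irradiated over control, was highest for complex II at 1.73 and lower for complex I at 1.37, IV at 1.31, III at 1.25 and V at 1.13, and 1.08 for the assembly factors of complex I. Under median-ratio scaling it was 1.31 for complex II and 1.04 for I, and it turned to 0.991 for IV, 0.943 for III, 0.855 for V and 0.826 for the assembly factors. All members together made up 1.34%, 2.25% and 1.64% of the summed FPKM of the table in irradiated replicates 1, 2 and 3 and 1.53%, 1.57% and 1.43% in the controls.

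**Figure D2:**
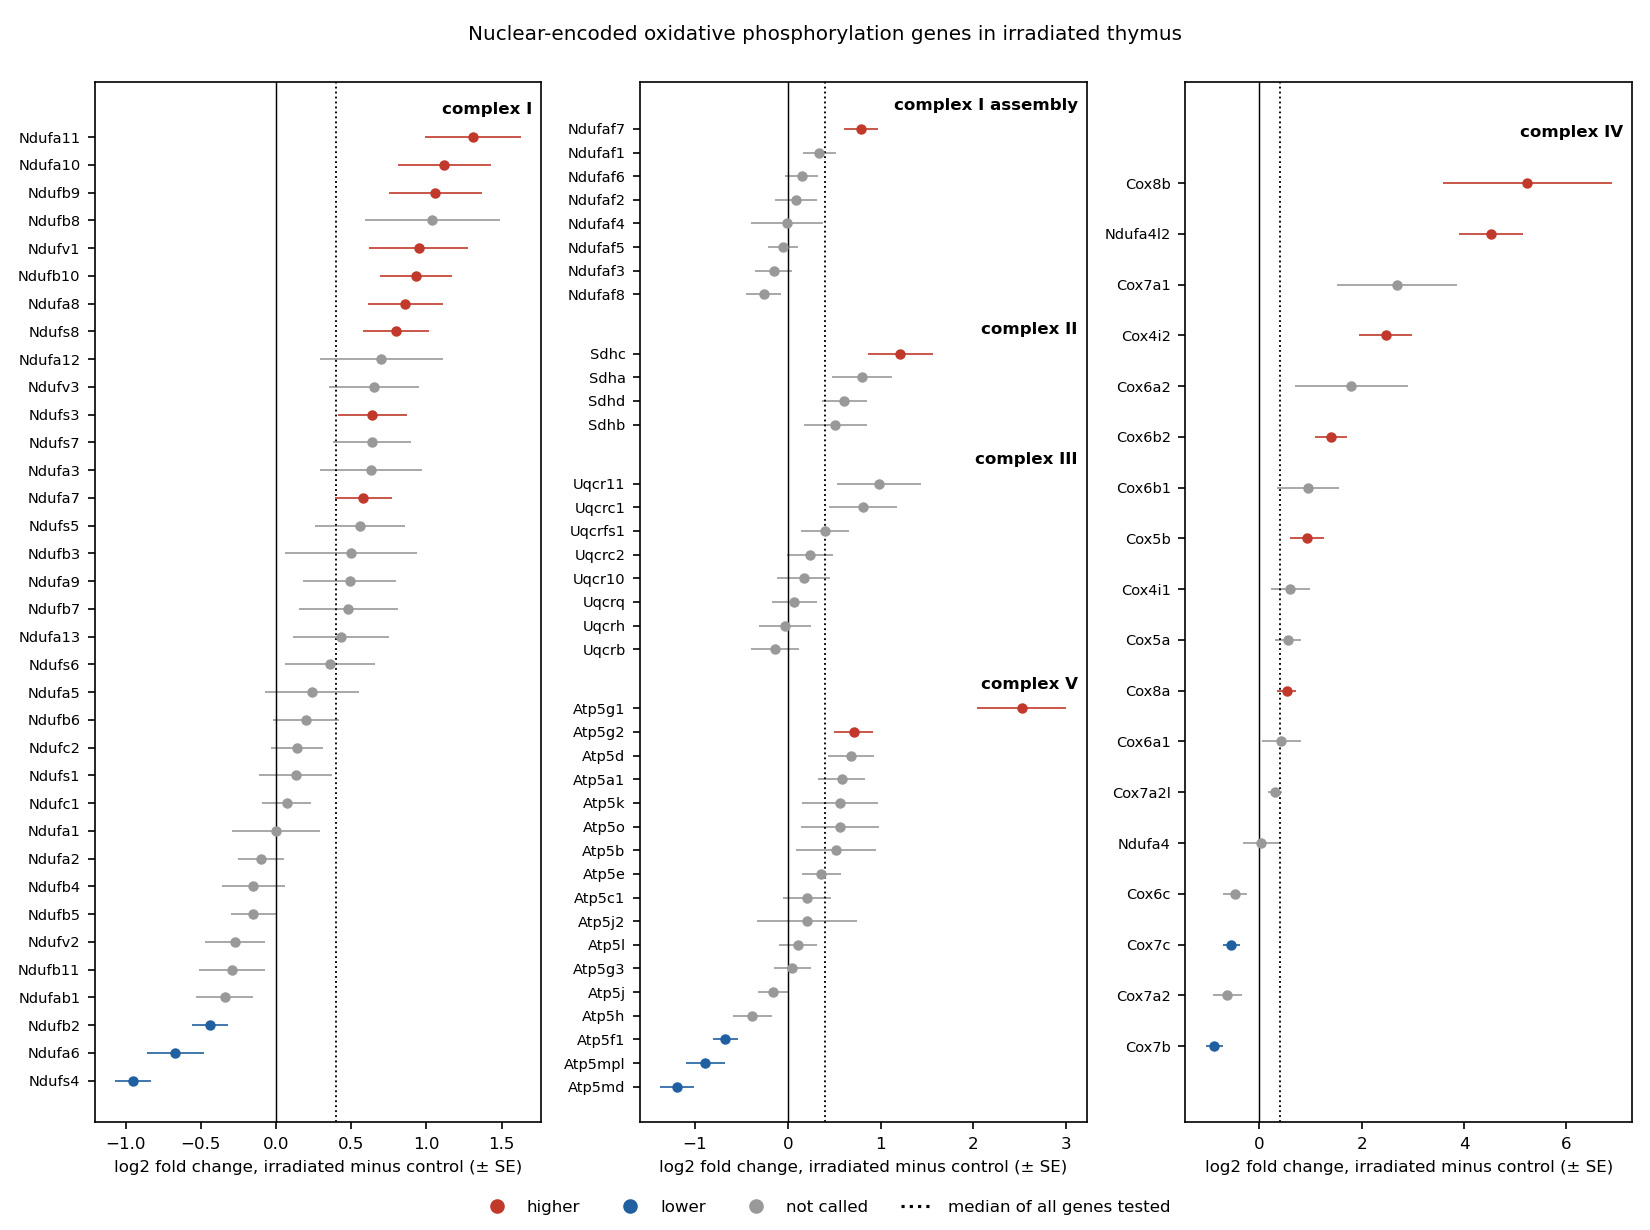
Log2 fold change, irradiated minus control, with its standard error (x axis) for tested members (y axis), grouped by complex; colours give the limma call and the dotted line the median of all tested genes, 0.40. Complex III holds no call, and the 3 largest changes are those of Cox8b, Ndufa4l2 and Cox7a1 in complex IV; the panels have different x ranges.

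Complex I takes electrons from NADH in an arm that reaches into the matrix. Its core subunits carry the electrons to coenzyme Q. Ndufv1, which holds the flavin that accepts the electrons of NADH, was at 21.6, 56.8 and 29.1 FPKM in irradiated replicates 1, 2 and 3, against 15.7, 16.8 and 18.5 FPKM in controls. Every irradiated library exceeded every control, and replicate 2 stood far above the other two. The log2 fold change was 0.95 ± 0.33 (SE; adjusted p = 0.0387). Ndufs8, an iron-sulfur protein, rose by 0.80 ± 0.22 (adjusted p = 0.0164), with 29.9, 53.8 and 42.9 FPKM in irradiated libraries and 21.9, 25.8 and 23 FPKM in controls. Ndufs3 rose by 0.64 ± 0.23 (adjusted p = 0.0427), with 17.4 to 32.9 FPKM in irradiated and 15 to 16.2 FPKM in control libraries. These 3 calls were lost when control replicate 1 or 3 was left out and under median-ratio scaling.

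Ndufs7, Ndufs1 and Ndufv2, also of the core, did not pass. Ndufs7 had a log2 fold change of 0.64 ± 0.26 (adjusted p = 0.0658), Ndufs1, the largest iron-sulfur subunit, of 0.13 ± 0.24 (adjusted p = 0.655) and Ndufv2 of -0.27 ± 0.20 (adjusted p = 0.257). Ndufv2 was at 31.7, 47.5 and 33.6 FPKM in irradiated replicates 1, 2 and 3, against 44.2, 51.2 and 39.3 FPKM in controls, while its partner in the NADH-binding module, Ndufv1, rose.

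Among the 29 accessory subunits of complex I, which surround the core, 6 rose and 3 fell. Ndufa11, a subunit of the membrane arm, was at 18.2, 41 and 39.3 FPKM in irradiated replicates 1, 2 and 3, against 14.9, 12 and 10.6 FPKM in controls. Its groups did not overlap, and the log2 fold change was 1.31 ± 0.32 (adjusted p = 0.0101). Ndufb10, also of the membrane arm, was at 28.7, 55 and 32.8 FPKM in irradiated libraries, against 19.2, 18.8 and 20.5 FPKM in controls (0.93 ± 0.24, adjusted p = 0.013). Ndufa10 was at 28.6, 71.3 and 37.5 FPKM, against 20.5, 18.8 and 19 FPKM in controls (1.12 ± 0.31, adjusted p = 0.0172). The other 3 that rose were Ndufb9, Ndufa8 and Ndufa7, at log2 fold changes of 1.06, 0.86 and 0.58. Ndufa11 shares exon sequence with Vmac on the other strand and Ndufb9 with Gm49356 on its own strand. Whether the counting used strand is not given in the sources used here, so reads of such genes may be mixed.

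Ndufs4 fell the most in complex I. This accessory subunit sits at the NADH-oxidizing end and is needed for a stable complex, and mice without it have a fatal brain disease. Its level was 18.7, 18.6 and 19.2 FPKM in irradiated replicates 1, 2 and 3, against 34.1, 39.8 and 35.4 FPKM in controls. The irradiated libraries lay close together and well under the lowest control, and the log2 fold change was -0.95 ± 0.12 (adjusted p = 0.000634). The gene spans chr13:114287795-114388258 on the minus strand of GRCm38, and its promoter is the one shown above with the YY1 letters. Ndufa6, which binds the acyl carrier protein Ndufab1, was at 14.8, 12.7 and 9.33 FPKM in irradiated libraries, against 20.2, 19.3 and 18.4 FPKM in controls (-0.67 ± 0.19, adjusted p = 0.0166). Ndufb2 was at 11.4, 11.5 and 12.1 FPKM, against 15.5, 16.7 and 15.3 FPKM in controls (-0.44 ± 0.12, adjusted p = 0.0156). Its exons overlap those of Braf on the other strand and of Gm42420 on its own. In neither gene did the groups overlap, and neither was higher in irradiated replicate 2 than in both other irradiated libraries. The call of Ndufa6 was lost without control replicate 1 or 2 and that of Ndufb2 without control replicate 2, at adjusted p up to 0.0611 and 0.0773.

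Assembly factors build complex I and are not part of the finished enzyme. Of the 8 named Ndufaf genes 1 rose and 0 fell, at a median log2 fold change of 0.04. Ndufaf7, a methyltransferase, was at 9.32, 9.55 and 9.57 FPKM in irradiated replicates 1, 2 and 3, against 6.7, 4.58 and 5.25 FPKM in controls (0.79 ± 0.18, adjusted p = 0.00659). Its irradiated libraries lay close together, and all exceeded the controls. The log2 fold changes of the rest ran from -0.26 ± 0.19 in Ndufaf8 to 0.34 ± 0.18 in Ndufaf1, with Ndufaf3 at -0.15, Ndufaf5 at -0.05 and Ndufaf6 at 0.15. The call of Ndufaf7 was lost under quantile normalization (0.34, adjusted p = 0.129) and median-ratio scaling (0.41, adjusted p = 0.0871). Under these scalings 5 and 3 of the factors were called lower.

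Complex II oxidizes succinate and is the only complex encoded wholly in the nucleus. Sdhc, a membrane anchor, rose. It was at 15, 42 and 30.3 FPKM in irradiated replicates 1, 2 and 3, against 12.2, 11.3 and 11 FPKM in controls, without overlap (1.21 ± 0.35, adjusted p = 0.0189). The other anchor, Sdhd, was at 39, 77 and 51.1 FPKM in irradiated libraries, against 34.4, 37 and 34 FPKM in controls (0.61 ± 0.24, adjusted p = 0.063). The flavoprotein Sdha was at 55.1, 141 and 87.1 FPKM, against 53, 50.7 and 47.3 FPKM in controls (0.80 ± 0.32, adjusted p = 0.0605). These had higher values in every irradiated library but missed the threshold. The iron-sulfur subunit Sdhb overlapped, at 56.3, 156 and 86.2 FPKM in irradiated and 62.8, 65.8 and 63.5 FPKM in control libraries (0.51 ± 0.34, adjusted p = 0.227). The call of Sdhc was lost without any 1 of the control libraries or irradiated replicate 3, at adjusted p up to 0.0611, and without irradiated replicate 1 all 4 genes were called.

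None of the 8 members of complex III passed in either direction with limma, also none at an unadjusted p under 0.05, and in all 8 the groups overlapped. The core subunit Uqcrc1 was at 27.4, 83.8 and 47.9 FPKM in irradiated replicates 1, 2 and 3, against 27, 27.7 and 27.1 FPKM in controls (0.81 ± 0.37, adjusted p = 0.0884). Uqcr11, a small subunit, was at 22.4, 86.8 and 58.7 FPKM, against 26.6, 22.8 and 24.1 FPKM in controls (0.98 ± 0.45, adjusted p = 0.0928). In both, replicate 1 was at the level of the controls. The Rieske iron-sulfur protein Uqcrfs1 had a log2 fold change of 0.40 ± 0.26 and the second core subunit Uqcrc2 of 0.24 ± 0.25. Uqcr10 was at 0.17 ± 0.28, Uqcrq at 0.07 ± 0.24, the hinge protein Uqcrh at -0.03 ± 0.28 and Uqcrb, near the coenzyme Q site, at -0.14 ± 0.26. Without irradiated replicate 1, 2 of the 8 were called higher.

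Complex IV reduces oxygen. Of its 11 subunits that have no tissue-specific use, 2 rose and 2 fell. Cox5b, which binds zinc on the matrix side, was at 16.6, 43.9 and 36.7 FPKM in irradiated replicates 1, 2 and 3, against 17.3, 14.9 and 15.1 FPKM in controls. It passed narrowly (0.93 ± 0.34, adjusted p = 0.0482) although replicate 1 lay among the controls. Cox8a was at 118, 147 and 103 FPKM in irradiated libraries, against 76.1, 92.3 and 83.3 FPKM in controls (0.53 ± 0.19, adjusted p = 0.0387). Both calls were lost without any 1 of the control libraries and without irradiated replicate 2.

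Cox7b and Cox7c, small subunits of the membrane part, were lower in irradiated thymus. Cox7b was at 35.9, 48.2 and 43.1 FPKM in irradiated replicates 1, 2 and 3, against 75, 88.5 and 70.2 FPKM in controls (-0.88 ± 0.17, adjusted p = 0.00336). Cox7c was at 97.2, 103 and 83.7 FPKM, against 136, 153 and 126 FPKM in controls (-0.55 ± 0.17, adjusted p = 0.0234). Neither gene overlapped between groups. Cox7a2 was at 69.9, 142 and 108 FPKM, against 149.5, 189.9 and 141 FPKM in controls, and did not pass (-0.63 ± 0.28, adjusted p = 0.0865). The call of Cox7c was lost without irradiated replicate 3 or control replicate 1 or 2. Cox4i1, Cox5a, Cox6a1 and Cox6b1 had positive log2 fold changes of 0.60, 0.56, 0.43 and 0.95 that did not pass, and Cox6c was at -0.48. Ndufa4 was at 0.03 and Cox7a2l, a gene tied to supercomplexes of complexes III and IV, at 0.30.

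The 3 largest log2 fold changes of all members, those of Cox8b, Ndufa4l2 and Cox7a1, belonged to tissue isoforms of complex IV. Of the 6 tested, 4 rose and 0 fell, with a median log2 fold change of 2.58. The shares among all genes tested were 42.4% higher and 20.9% lower. Cox4i2 and Ndufa4l2 averaged 0.149 and 0.17 FPKM in controls. Both reached the mean of 0.5 FPKM needed for testing only through the irradiated libraries, so that a lower call was hardly possible for them. Cox8b, used in heart, skeletal muscle and, in rodents, brown fat, was at 4.82, 161 and 48.7 FPKM in irradiated replicates 1, 2 and 3, against 4.12, 1.59 and 0 FPKM in controls (5.24 ± 1.65, adjusted p = 0.0273). Cox7a1, the heart and muscle counterpart of Cox7a2, was at 1.91, 74.1 and 16.5 FPKM, against 3.32, 1.81 and 1.31 FPKM in controls (2.69 ± 1.17, adjusted p = 0.0812). Cox6a2, of heart and skeletal muscle, was at 0.347, 13.6 and 1.6 FPKM, against 0.453, 0.599 and 0.533 FPKM in controls (1.80 ± 1.11, adjusted p = 0.19). In all 3 replicate 2 was the highest and replicate 1 was at or near the controls, the order of the heart muscle and brown fat sums given above. Without irradiated replicate 2 the log2 fold change of Cox6a2 was 0.48 (adjusted p = 0.527), that of Cox7a1 1.46 (adjusted p = 0.199) and that of Cox8b 4.11 (adjusted p = 0.0814). In the authors' deposited table all 3 passed, Cox8b at 4.92, Cox7a1 at 3.56 and Cox6a2 at 3.03.

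Set against its ubiquitous partner, Cox8b made up 3.93%, 52.4% and 32.2% of the summed FPKM of Cox8b and Cox8a in irradiated replicates 1, 2 and 3, and 5.14%, 1.7% and 0% in controls. Cox7a1 made up 2.66%, 34.2% and 13.2% of its sum with Cox7a2 in irradiated libraries, and 0.919% to 2.17% in controls. Cox6a2 made up 0.911%, 10.3% and 1.98% of its sum with Cox6a1, and 0.878% to 1.12% in controls. For each pair the share in irradiated replicate 1 was within or close to the range of the controls.

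The remaining isoforms were above the controls in irradiated replicate 1 as well. Ndufa4l2, a paralogue of Ndufa4 known to be induced under low oxygen, was at 2.77, 8.16 and 6.21 FPKM in irradiated replicates 1, 2 and 3, against 0.327, 0.182 and 0 FPKM in controls (4.53 ± 0.63, adjusted p = 0.000898). It made up 8.49%, 11.2% and 7.28% of its sum with Ndufa4 in irradiated libraries and 0.602%, 0.308% and 0% in controls. Its exons overlap Shmt2 on the other strand. Cox4i2, a form of subunit 4 found in lung and induced under low oxygen, was at 0.627, 1.41 and 2.23 FPKM, against 0.123, 0.2 and 0.124 FPKM in controls (2.47 ± 0.52, adjusted p = 0.00504). It was highest in irradiated replicate 3 and made up at most 0.907% of its sum with Cox4i1. Cox6b2, of testis, was at 6.51, 7.59 and 4.13 FPKM, against 2.71, 1.55 and 2.41 FPKM in controls (1.40 ± 0.31, adjusted p = 0.00604). Its share of the sum with Cox6b1 overlapped, at 11.8%, 2.53% and 1.99% in irradiated libraries and 3.7%, 2.01% and 3.11% in controls. The authors' deposited table did not call Cox6b2 (1.18, adjusted p = 0.057). In each of these 3 genes all irradiated libraries exceeded all controls. The 8 markers of endothelium and pericytes, all called higher, summed to 48.8, 115 and 98.8 FPKM in irradiated replicates 1, 2 and 3, against 12.4 to 13.9 FPKM in controls. The sums of macrophage, fibroblast and thymic epithelium markers also lay above the controls in every irradiated library. For fibroblasts they were 691, 744 and 700.2 FPKM, against 69.8 to 93.1 FPKM. The part of any of these cells in these isoforms was not tested. Under quantile normalization Cox4i2 and Cox6b2 did not pass (adjusted p = 0.186 and 0.152) and Ndufa4l2 did (3.46, adjusted p = 0.00775).

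**Figure D3:**
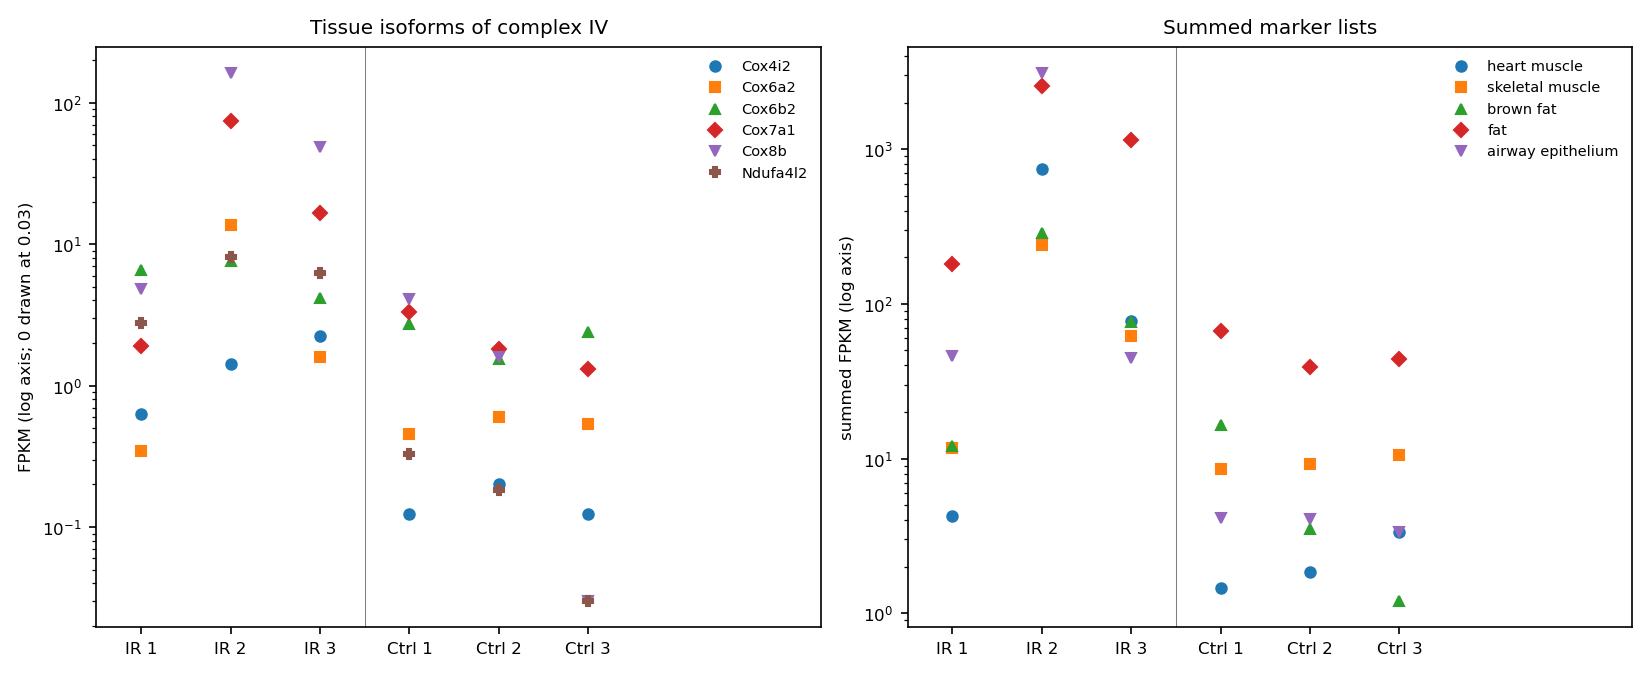
FPKM of the 6 tested tissue isoforms of complex IV (left) and summed FPKM of marker lists of other tissues (right) in each library, on log axes; IR marks irradiated and Ctrl control libraries, and a value of 0 is drawn at 0.03. Cox8b, Cox7a1 and Cox6a2 peak in irradiated replicate 2 as the heart muscle, skeletal muscle and brown fat sums do, while Ndufa4l2 is above the controls in all 3 irradiated libraries.

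ATP synthase consists of a catalytic head, a ring of c subunits that turns in the membrane, and a stalk that holds the head still. The c subunit is encoded by Atp5g1, Atp5g2 and Atp5g3, which give the same mature protein. Atp5g1 was at 11.7, 42.1 and 35.6 FPKM in irradiated replicates 1, 2 and 3, against 3.37, 5.91 and 4.41 FPKM in controls, without overlap (2.52 ± 0.48, adjusted p = 0.00334). Atp5g2 was at 46.1, 75.1 and 72.9 FPKM, against 39.2, 38.4 and 38.5 FPKM in controls (0.71 ± 0.21, adjusted p = 0.0206). Atp5g3, the most abundant, was at 80, 122 and 118 FPKM, against 99.8, 107 and 98.3 FPKM in controls, and did not pass (0.05 ± 0.20, adjusted p = 0.849). Of the summed FPKM of the 3 genes, Atp5g1 made up 8.5%, 17.6% and 15.7% in irradiated replicates 1, 2 and 3 and 2.37%, 3.9% and 3.12% in controls. Atp5g3 made up 58%, 51.1% and 52.2% in irradiated libraries and 70.1%, 70.7% and 69.6% in controls. The shares did not overlap between groups for any of the 3 genes. The call of Atp5g2 was lost in each fit without 1 library except that without irradiated replicate 1, at adjusted p up to 0.0677, and under median-ratio scaling (0.32, adjusted p = 0.154), while that of Atp5g1 was kept. For Atp5g1 the authors' deposited table gave a log2 fold change of 0.25 (adjusted p = 0.684), where the deposited FPKM gave 2.52, and the cause of this difference was not tested. Only Atp5g1 and Cox6a2 among the members differed by more than 1 between these sources, as did 349 of all 14001 tested genes.

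**Figure D4:**
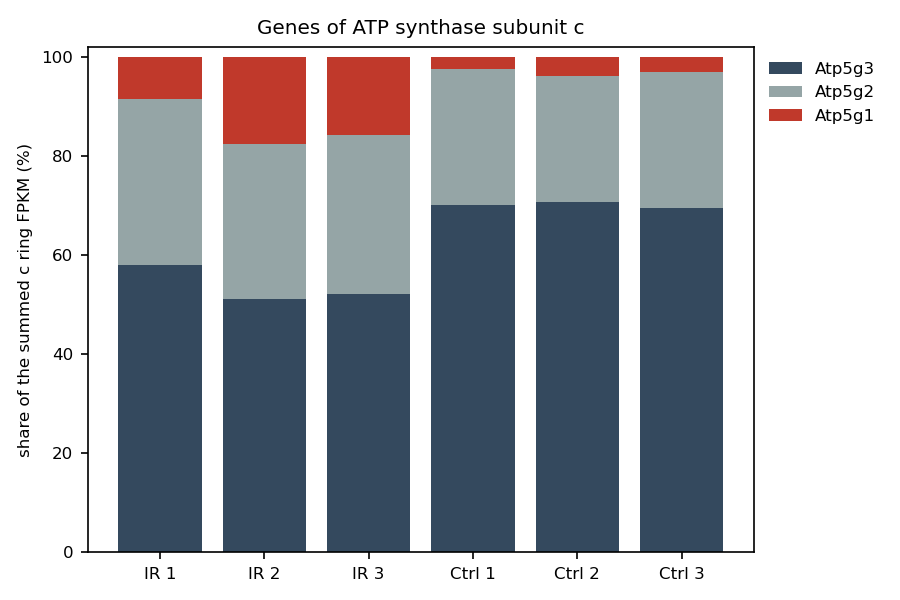
Share of each c ring gene in the summed FPKM of Atp5g1, Atp5g2 and Atp5g3 (y axis, percent) in each library (x axis; IR irradiated, Ctrl control). Atp5g1, in red at the top of each bar, makes up 8.5% to 17.6% in irradiated libraries and 2.37% to 3.9% in controls.

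The 5 genes of the catalytic head had positive log2 fold changes, but 0 passed with limma, 1 had an unadjusted p under 0.05, and 0 passed in the authors' deposited table. Atp5d, the delta subunit, came nearest, at 60.2, 122 and 80 FPKM in irradiated replicates 1, 2 and 3, against 51.4, 54.1 and 51.7 FPKM in controls (0.68 ± 0.25, adjusted p = 0.0503). Atp5b, the catalytic beta subunit and the most abundant member, was at 179, 617 and 382 FPKM in irradiated libraries, against 246, 245 and 238 FPKM in controls (0.52 ± 0.43, adjusted p = 0.32). Irradiated replicate 1 was thus below and replicates 2 and 3 above every control. Atp5a1, the alpha subunit, was at 0.58 ± 0.25 (adjusted p = 0.0756).

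Of the 9 tested genes of the stalk and the membrane part, 0 rose and 3 fell. Atp5md, whose small protein sits where pairs of the enzyme meet, was at 84.7, 99.5 and 90.2 FPKM in irradiated replicates 1, 2 and 3, against 208, 238 and 183 FPKM in controls. The groups were far apart, and the log2 fold change of -1.19 ± 0.18 (adjusted p = 0.00111) was the lowest of all members. It lies at chr19:47083464-47090647 on the minus strand and overlaps Taf5 on the other strand. Atp5mpl, another small protein of the membrane part, was at 12.5, 9.09 and 9.61 FPKM, against 25.2, 16.4 and 17.2 FPKM in controls (-0.89 ± 0.21, adjusted p = 0.00893). Atp5f1, subunit b of the stalk, was at 62.4, 69.1 and 62.7 FPKM, against 101, 108 and 100.5 FPKM in controls (-0.67 ± 0.13, adjusted p = 0.0042), and overlaps Wdr77 on the other strand. Atp5h, subunit d of the same stalk, lay below the controls in every irradiated library, at 96.6, 153 and 128 FPKM against 158, 164 and 162 FPKM, without passing (-0.38 ± 0.21, adjusted p = 0.142). The other 5 ran from -0.16 in Atp5j to 0.56 in Atp5k and Atp5o.

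The authors' deposited table called 14 members higher and 8 lower, beside 32.5% higher and 14% lower among all the genes to which it gives an adjusted p. Of these, 10 higher and 7 lower calls were shared with those above. That table did not call Atp5g1, Atp5g2, Cox5b, Cox6b2, Cox8a, Ndufa7, Ndufa8, Ndufaf7, Ndufs3 and Ndufs8 higher, or Ndufa6 lower. It did call Ndufa12, Sdha, Cox6a2 and Cox7a1 higher and Cox7a2 lower, none of which passed with limma. It placed Ndufs4 at -1.12 (adjusted p = 0.000891), Atp5md at -1.42 (adjusted p = 1.67e-05), Ndufa4l2 at 4.73 (adjusted p = 9.59e-08) and Sdhc at 1.20 (adjusted p = 0.00388).

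Partners of the nuclear members outside the name rule were read from lists chosen with earlier results of these data known. Of the 13 subunits encoded in mitochondrial DNA 0 passed with limma, 0 had an unadjusted p under 0.05, and 3 were higher in the authors' deposited table. Their summed level was 4256, 22576 and 10362 FPKM in irradiated replicates 1, 2 and 3, against 7530, 7025 and 6348 FPKM in controls, which is again the order of the nuclear members but wider. The nearest to the threshold were mt-Co2, of complex IV, at 1.44 ± 0.68 (adjusted p = 0.0994) and mt-Nd5, of complex I, at 1.35 ± 0.63 (adjusted p = 0.101), and the lowest were mt-Atp8 at -0.65 ± 0.42 (adjusted p = 0.212) and mt-Co3 at -0.38 ± 0.56 (adjusted p = 0.571).

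All genes tested stood at 42.4% higher, 20.9% lower and a median log2 fold change of 0.40. Among 16 genes of cytochromes c and c1, coenzyme Q and the electron-transferring flavoprotein, 11 rose and 1 fell, at a median of 0.78. Under median-ratio scaling 4 were higher and 1 lower, under quantile normalization 6 and 2, and fits without 1 library gave 6 to 13 higher. Coq8b, a kinase-like protein of coenzyme Q synthesis, was at 11.6, 13.2 and 13.6 FPKM in irradiated replicates 1, 2 and 3, against 5.08, 6.13 and 6.52 FPKM in controls (1.10 ± 0.16, adjusted p = 0.000936). Etfa, which carries electrons from fatty acid oxidation, was at 65.6, 97.2 and 63.8 FPKM, against 32.8, 30.1 and 26.5 FPKM in controls (1.32 ± 0.20, adjusted p = 0.00124). Both were raised in every irradiated library. Pdss1, which makes the tail of coenzyme Q, fell by 0.86 ± 0.23 on the log2 scale (adjusted p = 0.0137). Cyc1, the cytochrome c1 subunit of complex III that the name rule leaves out, did not pass, at 0.76 ± 0.47. Neither did Cycs, cytochrome c, at -0.04 ± 0.38.

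Of 17 genes of the citric acid cycle and pyruvate dehydrogenase 3 rose and 0 fell, at a median of 0.62. The shares over all genes tested were 42.4% higher and 20.9% lower, at a median of 0.40. Suclg2 rose by 1.13 ± 0.28 (adjusted p = 0.0114), Idh3b by 0.99 ± 0.27 (adjusted p = 0.016) and Cs, citrate synthase, by 1.26 ± 0.46 (adjusted p = 0.0451). Cs was at 40.6, 167 and 87.7 FPKM in irradiated replicates 1, 2 and 3, against 35.9, 33.1 and 36.3 FPKM in controls. Pdhb and Dlst were the lowest, at -0.10 ± 0.34 and -0.01 ± 0.26.

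Assembly factors outside the name rule were mixed, beside 42.4% higher and 20.9% lower among all genes tested. For complex I 3 of the 9 found rose and 0 fell (1 at an unadjusted p under 0.05), led by Tmem126a at 1.01 ± 0.17 (adjusted p = 0.00176) and Foxred1 at 0.78 ± 0.18 (adjusted p = 0.00816). For complexes II and III 5 of 10 rose and 2 fell. All 5 higher calls were lost under quantile normalization and under median-ratio scaling, and the authors' deposited table called no gene of this list. Lyrm7, which delivers the Rieske protein, was at 1.61, 2.1 and 1.6 FPKM in irradiated replicates 1, 2 and 3, against 4.43, 4.92 and 4.85 FPKM in controls (-1.38 ± 0.20, adjusted p = 0.001). Ttc19 fell by 0.58 ± 0.16 (adjusted p = 0.0164), while Sdhaf4 rose by 0.61 ± 0.14 (adjusted p = 0.00816) and Bcs1l by 0.77 ± 0.21 (adjusted p = 0.0167). For complex IV 5 of 24 rose and 5 fell, among them Coa5 at 1.07 ± 0.17 (adjusted p = 0.00137), Surf1 at 0.54 ± 0.15 (adjusted p = 0.0176), Coa6 at -1.08 ± 0.24 (adjusted p = 0.00663) and Cox16 at -0.72 ± 0.16 (adjusted p = 0.00693). For complex V 1 of 4 rose, Atpaf2, at 0.70 ± 0.25 (adjusted p = 0.0389), and 0 fell.

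Of 12 regulators of mitochondrial biogenesis 2 were higher and 6 lower, at a median log2 fold change of -0.35, beside the same 42.4% higher and 20.9% lower among all genes. Under quantile normalization 0 were higher and 7 lower, and fits without 1 library gave 0 to 2 higher and 4 to 7 lower. Nrf1, whose letters are marked in 3 of the promoters above, was at 13, 8.09 and 10.9 FPKM in irradiated replicates 1, 2 and 3, against 33.8, 33.4 and 28.4 FPKM in controls (-1.60 ± 0.19, adjusted p = 0.000513). Yy1 was at 20.8, 15.5 and 14.8 FPKM, against 30.6, 30.7 and 30.4 FPKM in controls (-0.86 ± 0.16, adjusted p = 0.00296). Both had their highest irradiated value in replicate 1, where most members had their lowest. The summed markers of double-positive thymocytes were also highest there, at 351, 253 and 310.3 FPKM in irradiated replicates 1, 2 and 3. Whether these orders are linked was not tested. Gabpb1, Tfam, Gabpa and Polrmt fell as well, by 1.17, 0.83, 0.71 and 0.48 on the log2 scale. Ppargc1a, the coactivator that is abundant in brown fat and muscle and one of the brown fat markers above, was at 0.468, 2.12 and 0.958 FPKM, against 0.15, 0.128 and 0.02 FPKM in controls (2.54 ± 0.63, adjusted p = 0.0105). Ppargc1a, too, reached the level needed for testing only through the irradiated libraries, with a control mean of 0.0993 FPKM. Esrra rose by 0.46 ± 0.17 (adjusted p = 0.0449). Over all lists of partners 30 genes were higher and 14 lower as deposited, 12 were higher and 22 lower under quantile normalization, and 8 were higher and 20 lower under median-ratio scaling. Leaving out irradiated replicate 1, 2 or 3 gave 55, 14 or 14 higher partners, and leaving out control replicate 1, 2 or 3 gave 14, 13 or 20.

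The lncRNA table, made from the same libraries, also holds noncoding transcripts of 66 members. All 180 are annotated in GENCODE M21 as retained introns (110) or processed transcripts (70), which share exons with the mRNA of the same gene. Summed to genes, 63 of the 66 were tested, of which 2 were higher and 17 lower. The background in that table was 15.8% higher and 30.1% lower of 9421 genes. The median log2 fold change was -0.53 for the members and -0.44 for all genes of the table. In 32 members the mRNA had a positive and the noncoding sum a negative log2 fold change, in 11 both were positive, in 18 both negative and in 2 the mRNA was negative and the noncoding sum positive. Positive log2 fold changes were found in 8677 of 14001 genes of the mRNA table and in 3216 of 9421 genes of the lncRNA table. The 2 tables as a whole thus leaned in opposite directions, and the pairs of signs were not counted over all genes.

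The 2 lowest noncoding log2 fold changes belonged to genes whose mRNA also fell. Of the 7 such genes tested, 4 fell in noncoding sum as well. The processed or retained-intron sum of Ndufs4 was at 0.912, 0.706 and 0.821 FPKM in irradiated replicates 1, 2 and 3, against 4.43, 4.32 and 3.13 FPKM in controls (-2.14 ± 0.26, adjusted p = 0.000742). That of Atp5f1 was at 9.15, 8.61 and 6.49 FPKM, against 28.3, 33.2 and 31 FPKM in controls (-1.93 ± 0.22, adjusted p = 0.000507). For both the noncoding log2 fold change was further from 0 than that of the mRNA, a difference that was not tested. Ndufb9 went apart, with a noncoding sum of 0.852, 0.411 and 0.377 FPKM in irradiated libraries, against 1.49, 2.85 and 1.39 FPKM in controls (-1.64 ± 0.41, adjusted p = 0.0133), while its mRNA rose. Cox5b likewise had a lower noncoding sum (-0.82 ± 0.24, adjusted p = 0.0252) and a higher mRNA. The 2 that were higher were Ndufaf7 (1.09 ± 0.29, adjusted p = 0.017), whose mRNA rose as well, and Uqcr10 (1.07 ± 0.26, adjusted p = 0.0119), whose mRNA did not pass. The count of 17 fell to 4 under median-ratio scaling and to 4 without control replicate 2 or 3, and was 25 without irradiated replicate 1.

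**Figure D5:**
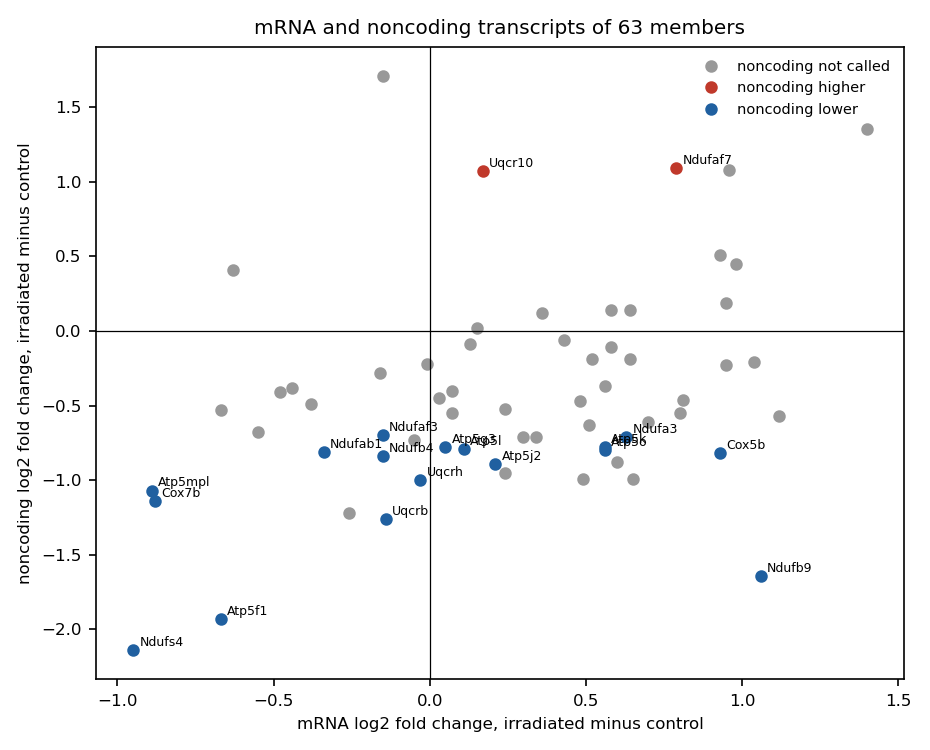
Log2 fold change, irradiated minus control, of the mRNA (x axis) and of the summed noncoding transcripts (y axis) of 63 members; colour gives the noncoding call. Most points lie below 0 on the y axis, and Ndufs4 and Atp5f1 stand lowest on it, at -2.14 and -1.93.

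The genes of the 3 classes of call did not differ much in length, with median transcript lengths of 772 bases for those that rose, 706 for those that fell and 651 for the rest, all short beside 2140 for all tested genes. Genes that fell had a median control level of 57.2 FPKM and genes that rose of 16.4 FPKM. Of the tested members 24 share exon positions with a gene on the other strand and 4 with a gene on the same strand, and Ndufab1, Uqcrh, Atp5c1, Atp5k and Atp5l have named pseudogenes whose reads the counting may have split.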

How the data were processed

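Polyadenylated RNA of thymus, per the labels, was sequenced from 3 irradiated and 3 control mice, all of which were used. In both tables the values are FPKM that the authors computed, for 21954 genes in 59179 mRNA lines and 53001 transcripts in the lncRNA table, 62 lines of which had no value and were dropped. The deposited log2 fold changes and p-values, raw and adjusted, are the authors' own, and the submitters' processing notes name DESeq2 1.10.1. How reads were aligned and counted, with or without strand, is not given in these sources. All 224 member transcripts found in GENCODE M21 have the same start and end there (GRCm38).

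The 1 value that each gene repeats on its mRNA lines was used, and noncoding transcripts were summed to genes. Log2(FPKM + 0.1) of genes averaging at least 0.5 FPKM was tested with limma 3.58.1 (R 4.3.3; group only, abundance trend, Benjamini-Hochberg over each table, threshold 0.05), after a check on simulated data. Fold changes are on this scale, which understates those of low genes, and are irradiated minus control with their SE. Depth was estimated from the smallest common step of FPKM times length, 0.039 to 0.0455 FPKM for 1 fragment in 1 kb. Alternatives were pseudocounts of 0.01 and 1, 2 filters, 3 scalings, a block on replicate number, each library left out, and the authors' deposited calls.

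The members and lists were chosen with earlier results of these data known. Named with values were the core subunits of complex I, complexes II and III, paralogues, the 3 smallest adjusted p each way among complex I accessory and assembly genes, IV and V, calls against the direction of most of their complex, and the 2 smallest adjusted p each way in other lists. Other members were named after their values were seen. The values of 1 complex I gene are not reported here, though it is in the counts.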

Additional observations from a re-analysis of the deposited data

How the results depend on the processing

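Quantile normalization called 3501 genes higher and 4403 lower in the mRNA table and 1827 lower in the lncRNA table. Among members it called 14 lower, 5 lower and 0 higher in complex I assembly, 2 higher in II and 1 higher in IV, 5 noncoding sums lower, and 12 partner genes higher and 22 lower. Median-ratio scaling called 4558 mRNA genes lower and 1628 lncRNA table genes lower. Among members it called 6 higher and 21 lower, with 1 and 9 in complex I, 0 and 3 in its assembly, 0 higher in II, 4 lower in IV, and 1 and 5 in V, while 4 noncoding sums were lower and 8 partner genes higher. TPM scaling called 2 higher in complex II, 5 noncoding sums lower and 1845 lncRNA table genes lower. Without a filter 2286 lncRNA table genes were higher. The authors' deposited table called 0 assembly genes of complex I, 2 of II and 0 of V higher, and 17 partner genes higher and 9 lower. The summed FPKM ratio of complex I assembly was 0.741 under quantile normalization and 0.826 under median-ratio scaling. The median log2 fold change of all genes was 0.40 as deposited, -0.07 and 0.02 under these scalings and 0.30 under TPM scaling.

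Leaving out each library in turn gave 7 to 53 members higher and 5 to 12 lower. By complex there were 2 to 23 higher and 1 to 4 lower in I, 1 to 2 higher in its assembly, 0 to 4 higher in II, 0 to 2 higher in III, 3 to 13 higher and 1 to 4 lower in IV, and 1 to 9 higher in V. Partner genes ranged over 13 to 55 higher and 8 to 15 lower, noncoding sums over 0 to 4 higher and 4 to 25 lower, and lower calls in the lncRNA table over 1656 to 3823. The highest counts of higher members, in all complexes, came without irradiated replicate 1.

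Log2 fold changes of uncalled members changed sign. Under quantile normalization, median-ratio scaling and TPM scaling Atp5g3 was at -0.08, -0.34 and -0.05, Ndufa4 at -0.07, -0.36 and -0.07 and Uqcrq at -0.00, -0.32 and -0.03. Under quantile normalization and median-ratio scaling Ndufaf1 was at -0.08 and -0.04 and Ndufaf6 at -0.73 and -0.22. Under median-ratio scaling Ndufs1 was at -0.25, Uqcr10 at -0.22 and Uqcrc2 at -0.15. The authors' deposited table gave -0.18 for Atp5g3, -0.15 for Ndufa4, -0.11 for Ndufaf6, -0.01 for Uqcr10 and -0.08 for Uqcrq. Without 1 library the range was -0.06 to 0.24 for Atp5g3, -0.26 to 0.45 for Ndufa4, -0.16 to 0.04 for Ndufaf5, -0.14 to 0.34 for Ndufs1, -0.11 to 0.41 for Uqcr10, -0.40 to 0.10 for Uqcrb, -0.03 to 0.46 for Uqcrc2, -0.34 to 0.17 for Uqcrh and -0.20 to 0.23 for Uqcrq. The causes were not tested. None of the 28 called members changed sign under any alternative that gave it a value.

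Samples of the same replicate number shared only the number: their deviations from the group means correlated at 0.06, -0.043 and 0.052 over 14001 genes. With the replicate block 19 members were higher and 8 lower, and 5693 and 2662 of all genes.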
